A study of Oryza sativa with 6 samples.

Results

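In leaves of 2-week-old rice seedlings, 117 of the 29011 genes in the deposited table were expressed at lower levels after 6 h with the protein ShSDH1 than after 6 h with a control protein. These genes were picked by their expression values. A gene counts as lowered here when its mean over the Control libraries lay from 1 to under 300 FPKM, its ShSDH1 mean was at most 0.6 of its Control mean, and its highest ShSDH1 library lay below its lowest Control library. FPKM is the number of sequenced fragments, scaled to the length of the gene and to the depth of the library. Genes in 3 stretches of the identifier numbering were left out. The Control level and the left-out stretches leave 16691 eligible genes, of which the 117 are 0.701%. Because levels and differences chose these genes, both are described below without a test.

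ShSDH1 is, per the series title, an oxidoreductase of OsiSh-2, a microbe that lives inside rice plants. The 3 ShSDH1 libraries came from seedlings given this protein. The 3 Control libraries were made after treatment with pCold TF protein, which carries a trigger factor chaperone tag used to keep recombinant proteins soluble. The labels name no cultivar and no altered allele for either group, and neither group was left without a protein. Nothing in them ties a library to a plant, a pool of plants or a day, and the spread between libraries may thus be partly technical.

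Plants perceive microbial molecules, and fragments of their own damaged cell walls, with receptors at the cell surface. As general background, leaves that do so raise transcripts for defence and often lower transcripts for growth and photosynthesis. Which of these roles the lowered genes have is not known here. Genes carry OsR498 identifiers alone in the table, and 0 of the 29011 matched the 39387 genes of the reference gene table. The tissue label could therefore not be set against leaf marker genes, and 2 lowered genes are printed by identifier while the rest are given by rank. Rank 1 is the gene with the lowest ratio of ShSDH1 mean to Control mean. In bulk leaf RNA, fewer cells of a type and less RNA per cell cannot be told apart.

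Most lowered genes kept a little over 50% of their Control level. The ratio of ShSDH1 mean to Control mean had a median of 0.518 over the 117 genes, with quartiles of 0.452 and 0.563, beside a median of 1.03 over all eligible genes. The ratio was at most 0.5 in 52 genes, at most 0.4 in 18 and at most 0.25 in 6. The lowered genes were mostly of low abundance. Their median ShSDH1 mean was 1.57 FPKM and their median Control mean 3.09 FPKM, beside 8.63 FPKM with ShSDH1 and 8.30 FPKM in Control over the eligible genes. In 82 of the 117 the Control mean was under 5 FPKM, and in 12 it was 20 FPKM or more.

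**Figure D1:**
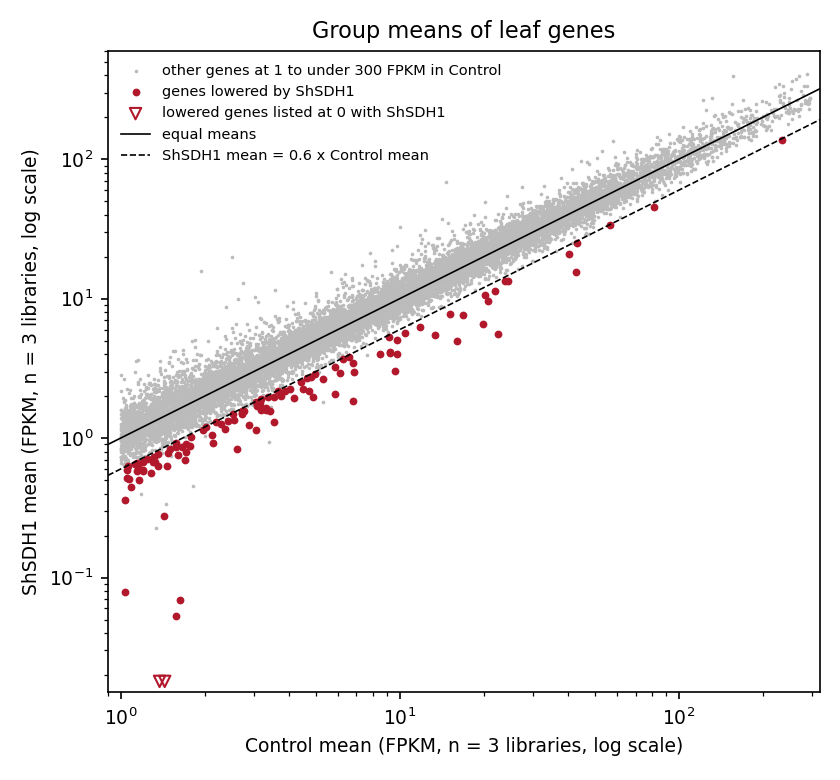
Mean FPKM of each eligible gene with ShSDH1 (vertical axis) against Control (horizontal axis), both on log scales, each mean over 3 libraries. The 117 lowered genes lie on or under the dashed line at 0.6 of the Control mean, mostly at the low end of the Control axis, and the 2 listed at 0 with ShSDH1 are drawn as triangles at the lower edge.

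Close to the limit, the genes inside and outside differed little. The 3 lowered genes nearest to the limit had ratios of 0.595, 0.595 and 0.5996, and the 3 nearest genes beyond it, also with groups that do not overlap, had 0.6001, 0.601 and 0.601. A further 28 eligible genes met the ratio but had overlapping groups. Groups did not overlap with ShSDH1 lower in 11.8% of the eligible genes and with ShSDH1 higher in 22.9%. The same rule turned round, with the Control mean at most 0.6 of the ShSDH1 mean and the groups apart, held for 272 eligible genes (1.63%). These raised genes were counted on FPKM as deposited only, and their number under other scaling was not computed.

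At the low end of the ratio stood a few genes whose transcripts were close to undetected with ShSDH1. OsR498G1120297500.01 was listed at 0 in all 3 ShSDH1 libraries, against 1.30, 2.64 and 0.382 FPKM in Control replicates 1, 2 and 3. It shared the ratio of 0 with the gene at rank 2 and is named because its Control mean of 1.44 ± 1.13 FPKM (SD, n = 3) was the higher of the pair. Its ShSDH1 libraries held no fragment, against 181, 347 and 56 fragments in the Control libraries, so that the Control replicates also differed from each other several-fold. Its companion at rank 2 was likewise listed at 0 in all ShSDH1 libraries, against 0.655, 2.66 and 0.819 FPKM in Control. No fold is given for these genes, since all their ShSDH1 values were 0. Both identifiers belong to the number series 11, and Control replicate 2 was the highest Control library in both.

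The genes at ranks 3 to 6 showed the same pattern with traces left. Rank 3 held a gene with 0.0261, 0.0222 and 0.110 FPKM with ShSDH1, on 1, 1 and 4 fragments, against 2.44, 1.33 and 0.948 FPKM in Control. Its 29.8-fold lower mean was 65.2-fold lower without ShSDH1 replicate 3. Next in order, rank 4 had 0.0547, 0.12 and 0.0331 FPKM with ShSDH1, against 2.22, 1.446 and 1.22 FPKM in Control. It was 23.5-fold lower with all libraries and 37.1-fold lower without ShSDH1 replicate 2. The size of the difference thus rests on few ShSDH1 fragments in both genes, with 7, 18 and 4 in ShSDH1 replicates 1, 2 and 3 at rank 4. The separation of the groups was wide, with the lowest Control library at 8.58 and 10.1 times the highest ShSDH1 library at ranks 3 and 4. At rank 5 the values were 0.125, 0 and 0.112 FPKM with ShSDH1 and 0.743, 0.703 and 1.66 FPKM in Control. At rank 6 they were 0.183, 0.312 and 0.332 FPKM with ShSDH1 and 1.37, 1.84 and 1.097 FPKM in Control, which was 5.203-fold lower. In all 6 genes the groups were set apart by 3.30 times or more where a ShSDH1 library was above 0.

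The gene at rank 7 owed its place to a single library. It had 6.00, 5.98 and 4.89 FPKM with ShSDH1, against 6.84, 14.1 and 46.3 FPKM in Control, so that Control replicate 1 came within 1.14 times of the highest ShSDH1 library. Its mean was 3.99-fold lower with ShSDH1, and 1.86-fold lower without Control replicate 3. Apart from the genes at ranks 3, 4 and 7, no fold moved by more than 1.5 times when a library was left out, among the 115 genes that have one.

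The next 3 genes in rank were expressed at moderate levels. Values at rank 8 were 1.07, 1.98 and 2.46 FPKM with ShSDH1, against 5.88, 6.26 and 8.20 FPKM in Control, 3.69-fold lower. Rank 9 had 4.34, 4.74 and 5.79 FPKM with ShSDH1, against 14.2, 13.99 and 19.98 FPKM in Control, 3.24-fold lower. Of the 3, the gene at rank 10 had the closest replicates, at 3.12, 3.17 and 2.78 FPKM with ShSDH1 and 9.11, 9.46 and 10.2 FPKM in Control, 3.17-fold lower. All 3 genes kept at least a 2.39-fold gap between the lowest Control and the highest ShSDH1 library.

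The largest loss in FPKM was in the most abundant lowered gene, OsR498G0408648900.01. It had 143, 126 and 144 FPKM in ShSDH1 replicates 1, 2 and 3, against 263, 225 and 215 FPKM in Control replicates 1, 2 and 3. Its mean was 137.5 ± 10.3 FPKM with ShSDH1 and 234.3 ± 25.1 FPKM in Control (SD, n = 3 each), which was 1.70-fold lower. Every library held at least 13414 fragments of this gene, so counting error is a small part of its spread. It took 25.5% of the summed FPKM of the lowered genes with ShSDH1 and 22.3% in Control.

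The genes next in Control level were lower by similar folds. The second most abundant, at rank 81, had 43.5, 45.8 and 47.3 FPKM with ShSDH1 and 83.65, 83.07 and 77.95 FPKM in Control, 1.79-fold lower. The third, at rank 111, had 31.1, 31.7 and 37.8 FPKM with ShSDH1 and 60.1, 55.6 and 54.6 FPKM in Control, 1.69-fold lower. The fourth, at rank 107, had 25.8, 21.5 and 28.3 FPKM with ShSDH1 and 48.8, 42.7 and 37.6 FPKM in Control, 1.71-fold lower. Among the 10 most abundant lowered genes, those at ranks 7 and 15 alone were lower by more than 2-fold. In the last of these the values were 16.2, 13.3 and 17.4 FPKM with ShSDH1 and 40.4, 30.1 and 58.2 FPKM in Control, 2.74-fold lower.

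Summed over the 117 genes, expression came to 545, 513 and 558 FPKM in ShSDH1 replicates 1, 2 and 3, against 1072, 1005 and 1071 FPKM in Control replicates 1, 2 and 3. The lowered genes thus took 0.119% ± 0.007 of all FPKM with ShSDH1 and 0.232% ± 0.008 in Control (SD, n = 3 each). Without the most abundant gene the sums were 401.2 ± 13.3 FPKM with ShSDH1 and 815 ± 38.2 FPKM in Control (SD, n = 3 each). The 10 most abundant lowered genes together held 59.8% of the sum with ShSDH1 and 56.4% in Control.

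**Figure D2:**
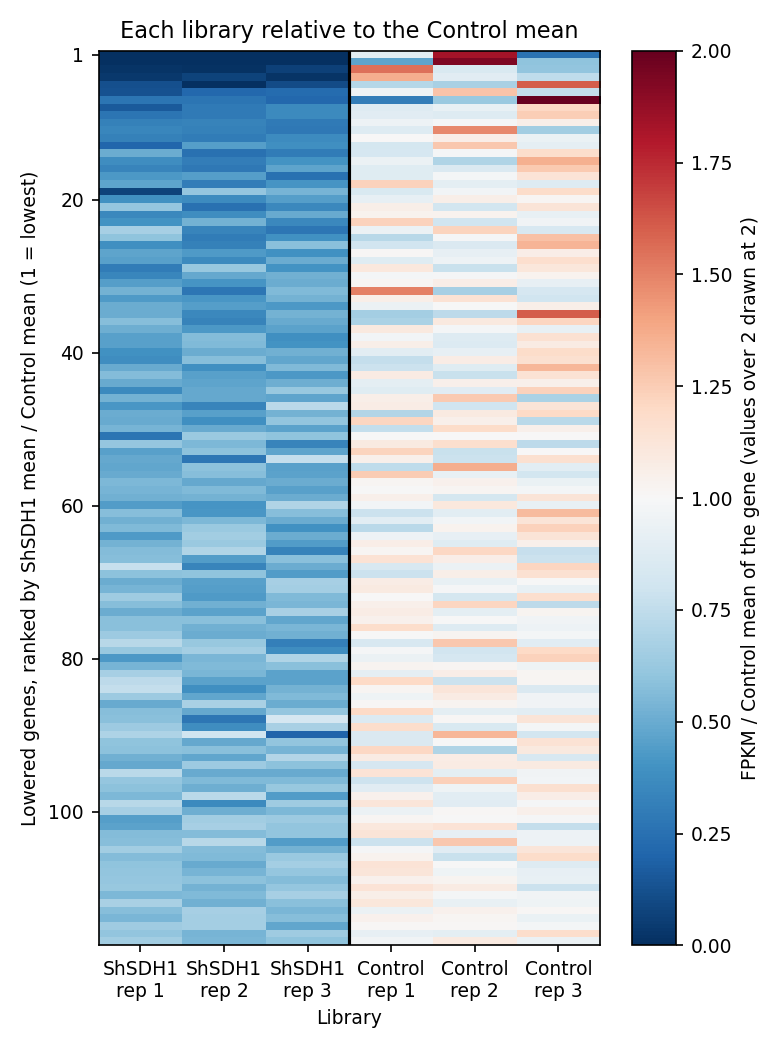
FPKM of each lowered gene in each library, divided by the Control mean of that gene (colour, values over 2 drawn at 2); rows are the 117 genes by rank and columns are the 3 ShSDH1 and 3 Control libraries. The ShSDH1 columns are blue throughout, darkest in the first 6 rows, while single Control libraries are dark red in a few of the top rows, such as Control replicate 3 at rank 7.

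The rule also fixes much of what the single libraries show. The median over the 117 genes of FPKM relative to the Control mean was 0.523, 0.490 and 0.505 in ShSDH1 replicates 1, 2 and 3, against 0.999, 0.985 and 1.00 in Control replicates 1, 2 and 3. ShSDH1 replicate 2 was the lowest ShSDH1 library in 55 of the 115 genes with a value above 0 (47.8%), beside 45.0% of the eligible genes. Control replicate 3 was the highest Control library in 51 of the 117 (43.6%), beside 49.97% of the eligible genes. Other places differed more. Control replicate 3 was the lowest Control library in 35.0% of the lowered genes, beside 25.5% of the eligible genes, and Control replicate 2 in 29.9%, beside 37.6%. Among the ShSDH1 libraries, replicate 2 stood highest in 28.7% of the lowered genes, beside 34.9% of the eligible genes. The rule bears on these shares, since it bars low Control and high ShSDH1 values that would make the groups overlap.

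The groups were apart in all 117 genes by the rule, but by unequal distances. The lowest Control library exceeded the highest ShSDH1 library by a median of 1.40 times over the 115 genes, with quartiles of 1.25 and 1.64. The gap was 1.5 times or more in 41 genes and 2 times or more in 9, and under 1.1 times in 8. The closest groups were those of the gene at rank 90, with a gap of 1.01 times.

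Replicates of the lowered genes scattered more than those of the eligible genes. The coefficient of variation (SD as a percentage of the mean of 3 libraries) had a median of 17.4% with ShSDH1 and 16.8% in Control over the lowered genes, beside 8.4% with ShSDH1 and 7.5% in Control over the eligible genes. Fewer fragments stood behind the lowered genes, with a median of 127 per library beside 736 for the eligible genes. Counting error at these numbers is 8.9% and 3.7% of the value. The wider scatter also appeared among genes of like Control level, although with ShSDH1 the lowered genes lie at lower levels by the rule. For Control means from 5 to under 20 FPKM it was 14.4% with ShSDH1 and 10.7% in Control over the lowered genes, beside 7.5% with ShSDH1 and 6.5% in Control over the eligible genes. At that level the lowered genes had a median of 288 fragments per library and the eligible genes 919, and what part this difference plays was not tested. In 44 lowered genes every library held 100 fragments or more, and their median ratio was 0.538. In 22 genes some ShSDH1 library held under 20.

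The fragment numbers come from the steps in which low FPKM values occur, which also give the total depth and the length of each gene. Total depth ran from 33654750 to 41776866 fragments over the 6 libraries. Fragments carry no molecular tags, so errors based on their number cover no more than the counting.

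Length is a property that the rule did not use. The lowered genes had a median length of 1435 bases, with quartiles of 921 and 2005 bases, beside 2254 bases (1518 and 3204 bases) over the 16690 eligible genes with a length. Lengths under 1000 bases were found in 35 of the 117 (29.9%), beside 9.99% of the eligible genes. The 272 raised genes of the mirrored rule were short too, with a median of 1470.5 bases. The 1852 eligible genes whose groups were apart with ShSDH1 lower but whose ratio exceeded 0.6 had a median of 2385.5 bases. Short length was thus found on both sides of the comparison at the larger fold.

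Of the shortest eligible genes, those of up to 1351 bases when the genes are cut by length into 5 classes of nearly equal size, 1.68% were lowered and 3.35% raised. In the class of the longest genes, from 3467 bases, 0.210% were lowered and 0.330% raised. Level behaved alike, with 1.83% of genes at 1 to under 2 FPKM in Control lowered and 3.88% raised, and 0.290% and 0.748% at 20 FPKM or more. At a given FPKM a shorter gene has fewer fragments, and the lowered genes of the shortest class had a median of 86.6 fragments per library, beside 329 in the longest class. Length, level and counting error move together here, and their separate parts were not tested.

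**Figure D3:**
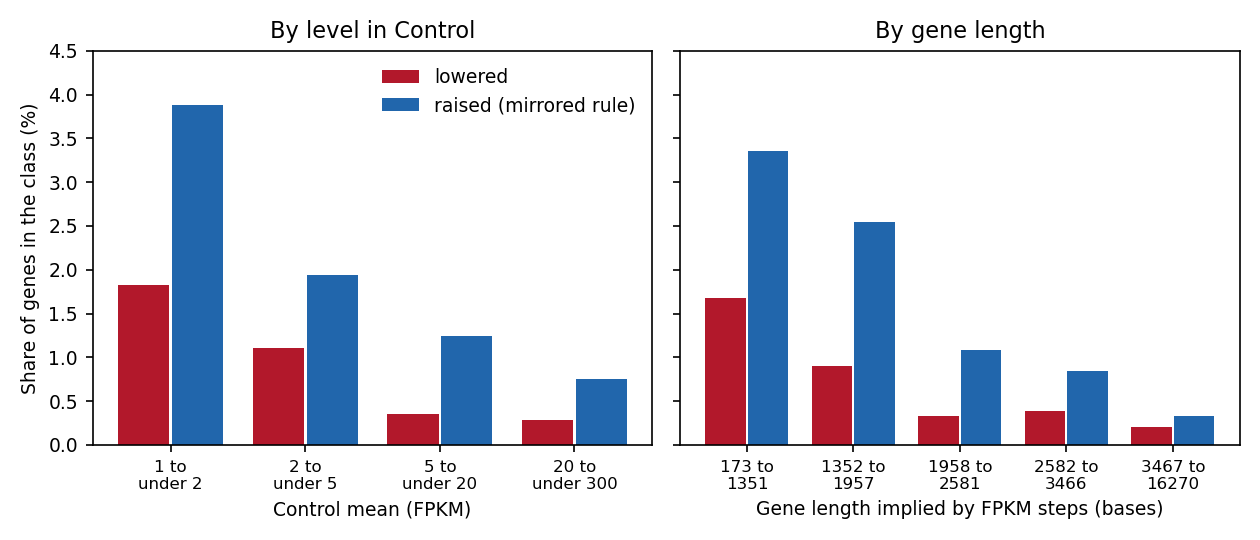
Share of eligible genes that were lowered (red) or raised by the mirrored rule (blue), in percent, by Control mean in FPKM (left panel) and by gene length in bases (right panel). Both shares are highest among weakly expressed and short genes, with 1.83% lowered and 3.88% raised in the lowest class of level, and raised genes outnumber lowered ones in every class.

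Genes picked in some of the libraries were also read in the others. The 117 themselves were picked by all libraries, so no library is left to read them in, and the picked lists below overlap with them only in part. The rule was applied to 2 ShSDH1 and 2 Control libraries, and the genes it picked were then read in the ShSDH1 and the Control library left out. There are 9 such choices, which share libraries and are not independent of each other. They picked from 147 to 253 genes, with 89 to 103 of the 117 among them. In the libraries that picked them, the median ratio lay between 0.498 and 0.541. In the libraries left out it lay between 0.591 and 0.822, with 0.688 in the middle, while the median over all eligible genes there lay between 0.986 and 1.07. The picked genes were lower with ShSDH1 in the libraries left out in 61.7% to 88.4% of cases, beside 34.9% to 52.7% of the eligible genes. They reached the limit of 0.6 there in 28.1% to 52.0% of cases, beside 1.13% to 5.02% of the eligible genes. The eligible genes were not matched to the picked genes in level or fragment number.

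The libraries left out therefore showed a smaller difference than the libraries that picked the genes, in the same direction, in all 9 choices. The difference was smallest when ShSDH1 replicate 1 and Control replicate 2 were left out, where 156 of 253 genes were lower and the median ratio was 0.822. It was largest without ShSDH1 replicate 2 and Control replicate 2, where 127 of 148 genes were lower and the median ratio was 0.591. The 3 choices that left out ShSDH1 replicate 2 had the lowest held-out ratios, 0.633, 0.591 and 0.595, where the eligible genes had medians of 1.02, 1.03 and 0.986. In the 3 choices that left out ShSDH1 replicate 1 they were 0.728, 0.822 and 0.688, beside eligible medians of 1.07, 1.07 and 1.02. In the 3 that left out ShSDH1 replicate 3 they were 0.705, 0.711 and 0.683, beside eligible medians of 1.06, 1.06 and 1.02.

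**Figure D4:**
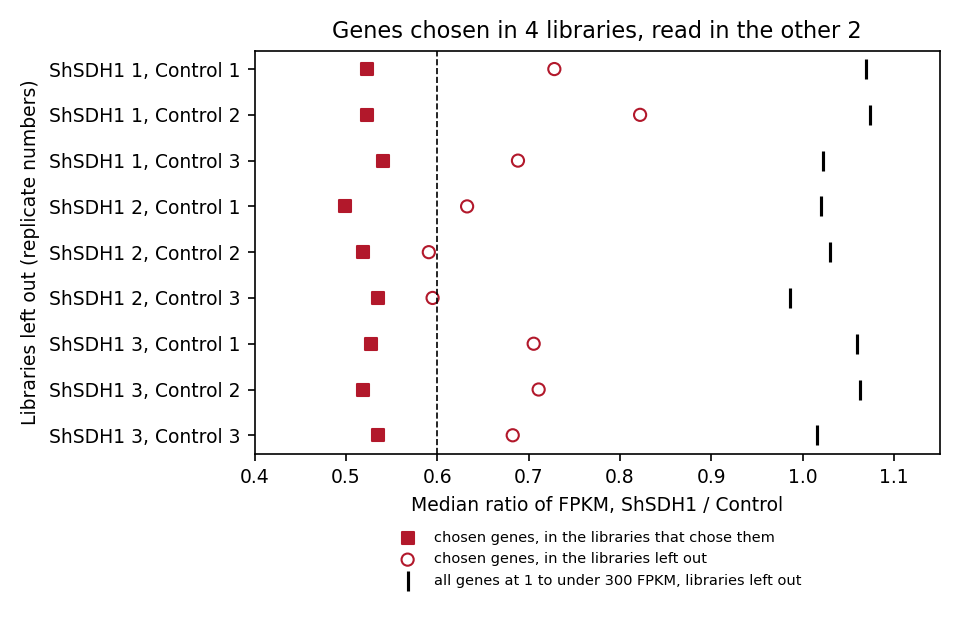
Median ratio of FPKM, ShSDH1 over Control, for genes picked by the rule in 4 libraries (horizontal axis), one row for each of the 9 choices of libraries left out. Squares show the picked genes in the libraries that picked them, open circles the same genes in the libraries left out (0.591 to 0.822), bars all eligible genes in the libraries left out (0.986 to 1.07), and the dashed line the limit of 0.6.

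A test across all genes used the same contrast as the rule and is given as a count. With limma on log2(FPKM + 1), 87 of the 117 genes were called lower at a Benjamini-Hochberg adjusted p under 0.05, beside 3.75% of the 17247 tested genes. Of the rest, 13 were tested and not called, and 17 missed the filter of at least 1 FPKM in 3 libraries. Among the 100 tested genes 17 reached 1 FPKM in Control libraries only, so that their passing the filter was tied to their difference. The called genes had a median Control mean of 3.77 FPKM, and those tested and not called 1.58 FPKM. The gene at rank 7, with its single high Control library, was among the 13. Leaving out a Control library left 83 of the 117 tested, with 44, 44 and 66 calls without replicates 1, 2 and 3. Leaving out a ShSDH1 library left 100 tested, with 49, 64 and 62 calls without replicates 1, 2 and 3. With all libraries and no filter, all 117 were tested and 59 were called lower, beside 403 of the 29011 tested genes. The 87 genes made up 13.4% of the 647 genes called lower among all tested genes. That total was 146 of 17137 tested genes without Control replicate 1, 191 of 17136 without replicate 2 and 712 of 17071 without replicate 3. It was 202 of 17025 without ShSDH1 replicate 1, 594 of 17095 without replicate 2 and 321 of 17025 without replicate 3. The test called 1759 genes higher (73.1% of all calls), and 1109 higher and 844 lower (56.8% higher) with median-ratio size factors, or 1251 higher and 990 lower (55.8% higher) with quantile normalization.

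Lowered genes occurred in all 12 number series of the identifiers, read from the first 2 digits after the letter G. In the usual naming of such identifiers these digits stand for the chromosome, but no coordinates were used here. The series 3 held 17 of the 117, the series 2 held 15 and the series 1 held 14. As a share of eligible genes the counts ran from 0.249% in the series 10 (2 of 804) to 1.13% in the series 11 (10 of 884), around 0.701% over all series. In the series 11 the 10 lowered genes outnumbered the 8 raised genes of the mirrored rule, whereas raised genes were the more numerous in each of the other 11 series.

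Some lowered genes stood side by side in identifier order. When the eligible genes were ordered by identifier within each series, 10 neighbouring pairs consisted of lowered genes only, and 19 of the 117 were in such a pair. Counted over the places next to a lowered gene, 20 of 234 (8.55%) held another lowered gene, beside 0.701% of all eligible genes. For the raised genes of the mirrored rule it was 24 of 544 places (4.41%), beside 1.63%. With all listed genes in the order, 7 pairs and 14 genes remained neighbours. The search for neighbours was made knowing that lowered genes had been seen side by side in these data, so the count describes the pattern and does not test it.

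**Figure D5:**
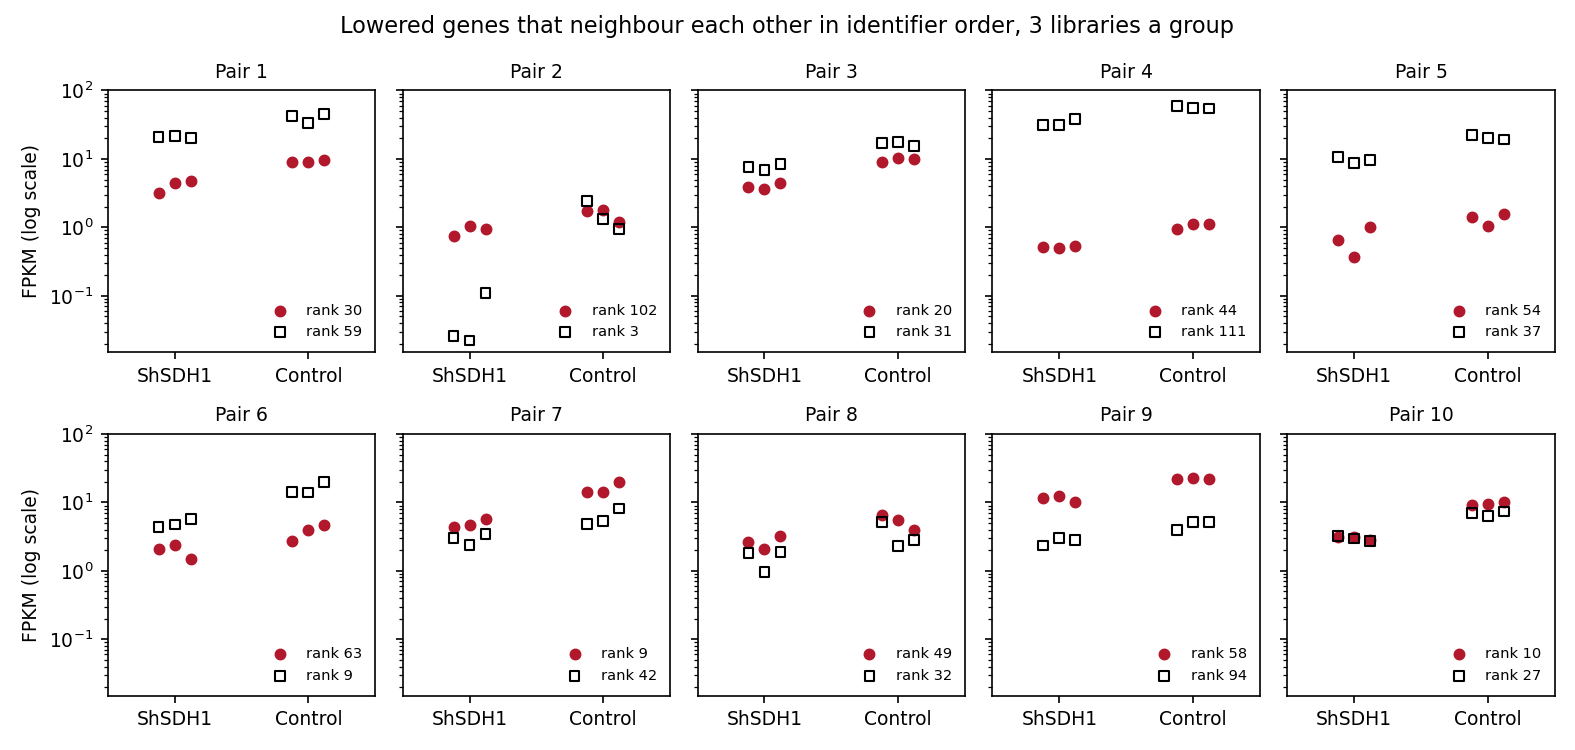
FPKM on a log scale of the 10 pairs of lowered genes that neighbour each other in identifier order, 1 panel a pair, with the 3 ShSDH1 libraries left of the 3 Control libraries. Circles and squares are the members of a pair, named by rank; the levels of a pair differ widely in pairs 4 and 5, and nearly coincide with ShSDH1 in pair 10.

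The pairs lay in 7 of the number series, with identifier numbers 100 to 6800 apart. In the series 12 the genes at ranks 10 and 27 behaved alike. Rank 27 had 3.24, 2.96 and 2.71 FPKM with ShSDH1, against 6.95, 6.30 and 7.34 FPKM in Control. Its neighbour at rank 10, described above, had nearly the same ShSDH1 levels and higher Control levels. In the series 7 a run of 3 genes, neighbours among the eligible genes, was lowered, at ranks 63, 9 and 42. Ranks 9 and 42, with identifier numbers 500 apart, were also neighbours among all listed genes. Ranks 63 and 9, 6800 apart, were not. Rank 63, the first of the run, had 2.12, 2.38 and 1.49 FPKM with ShSDH1 and 2.76, 3.90 and 4.63 FPKM in Control. Rank 42, at its other end, had 3.01, 2.38 and 3.41 FPKM with ShSDH1 and 4.80, 5.39 and 8.15 FPKM in Control, so that Control replicate 3 was the highest library in all 3 genes of the run.

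In the series 2 the genes at ranks 20 and 31 had identifier numbers 200 apart. Of these, rank 20 had 3.90, 3.65 and 4.40 FPKM with ShSDH1 and 8.96, 10.4 and 10.02 FPKM in Control, 2.46-fold lower. Its neighbour at rank 31 had 7.52, 6.85 and 8.48 FPKM with ShSDH1 and 17.2, 17.9 and 15.4 FPKM in Control, 2.21-fold lower. Both had ShSDH1 replicate 3 as the highest and ShSDH1 replicate 2 as the lowest ShSDH1 library. Other pairs were far apart in level. In the series 3 the gene at rank 44 averaged 0.519 ± 0.021 FPKM with ShSDH1 and 1.06 ± 0.09 FPKM in Control, while its neighbour at rank 111 averaged 33.6 ± 3.7 FPKM with ShSDH1 and 56.8 ± 2.9 FPKM in Control (SD, n = 3 each). Also in the series 3, the gene at rank 54 averaged 0.675 ± 0.323 FPKM with ShSDH1 and 1.33 ± 0.26 FPKM in Control, and its neighbour at rank 37 averaged 9.68 ± 0.93 FPKM with ShSDH1 and 20.7 ± 1.8 FPKM in Control (SD, n = 3 each).

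Neighbouring genes can be near-identical copies or overlapping models, between which the counting may have split fragments, so the separate values of a pair are uncertain. Lengths lay within 10% of each other in 4 of the 10 pairs, among them both pairs that hold the gene at rank 9. The share over all neighbouring eligible genes was not computed, so this count has no background beside it. Whether shared fragments play a part in the pairs was not tested. Beyond the pairs, the genes next to lowered genes resembled the rest. The 212 other neighbours had a median ratio of 1.03, with quartiles of 0.913 and 1.16, beside a median of 1.03 and quartiles of 0.933 and 1.153 over the 16574 eligible genes that were not lowered. Groups were apart with ShSDH1 lower in 28 of the 212 (13.2%), beside 11.2% of the eligible genes that were not lowered, and with ShSDH1 higher in 50 (23.6%), beside 23.1%.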

How the data were processed

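RNA-seq of 6 rice leaf libraries was used, 3 with ShSDH1 and 3 Control, grouped and numbered by the sample titles. The authors deposited 1 table of FPKM values with 1 column per library, without pooled replicates. Aligner, counting tool, annotation and strand setting were not given in the sources used here. Builds named in the submitters' processing notes, GRCm38 and mm10, are mouse builds and cannot be those behind rice identifiers. Per the labels' protocols, the libraries were made with a VAHTS Universal V5 kit, while another sentence names a SMARTER kit.

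The lowered genes were found by the stated rule on FPKM as deposited. Depth and lengths were computed from the whole-fragment steps of low values. A length was found for all 26241 genes above 0 in at least 3 libraries, with implied fragments within 0.001 of whole numbers. Closeness to whole numbers was the condition for taking a length, so it is no separate check of the lengths. The length of a gene with few fragments may be a whole fraction of its true length. Differences were tested with limma 3.58.1 (trended eBayes, R 4.3.3) on log2(FPKM + 1), over genes with at least 1 FPKM in 3 of the 6 libraries, two-sided, adjusted over all tested genes. FPKM are not counts, and log2 differences on this scale understate low genes. Fit and depth recovery were tested on simulated data. Python 3.11.15 with NumPy 2.4.6 and pandas 2.3.3 gave the other values, and matplotlib 3.10.9 the figures.

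Genes printed by identifier are the lowered gene with the lowest ratio (of those tied at 0, the higher in Control, a tie rule added later) and the one with the largest fall in FPKM; others follow rank by ratio or by Control mean, and neighbours were chosen after their values were seen. The genes, lists and rules were chosen with earlier results of these data known. Gene lists by function and leaf markers could not be applied, since no identifier matched a name. Alternatives covered the limits of the rule, scaling, pseudocount, filter, variance model, replicate block and leaving out each library. Voom on implied fragments and the reading in libraries left out were added after the data were seen.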

Additional observations from a re-analysis of the deposited data

How the results depend on the processing

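Of 77 alternatives, 46 kept the value within 1.5 times (counts), within the replicate SD (ratio, share) or within the 95% interval of the median (length). The number of lowered genes, 117, was 52 and 283 with ratio limits of 0.5 and 0.7. It was 35 with a Control mean of at least 5 FPKM, and 122 to 179 without single libraries (179 without ShSDH1 replicate 1). Under other scaling it was 192 after rescaling to TPM with the bounds kept, 161 with median-ratio size factors and 182 with quantile normalization. Of the 117, 62 met the rule without each library in turn. The median ratio, 0.518, was 0.432 and 0.621 with those limits, 0.4999 after rescaling to TPM and 0.512 to 0.546 without single libraries. The share of FPKM, ShSDH1 minus Control, -0.113 percentage points, was -0.0415 and -0.264 with those limits and -0.141 to -0.0912 without single libraries. Lowered genes called by limma, 87 of 117, were 39 of 52 and 190 of 283 with those limits, beside 647 of the 17247 tested genes. Without single ShSDH1 libraries they were 49 to 64 of 100 tested, beside 202 to 594 of all tested genes. Without single Control libraries they were 44 to 66 of 83 tested, beside 146 to 712 of all tested genes. With no filter they were 59 of 117 tested, beside 403 of the 29011 tested genes. With a filter at 5 FPKM they were 31 of 32 tested, beside 646 of the 11244 tested genes. All genes called lower, 647, were 990 with quantile normalization, 403 with no filter, and 146 to 712 without single libraries. Fewer samples or tested genes enter some of these, and other causes were not tested. Neighbouring lowered genes, 19, were 15 to 23 without single libraries. With the replicate number as a block, 91 lowered genes and 596 of all genes were called lower. Deviations of same-numbered libraries correlated at 0.18, 0.27 and -0.02 for replicates 1, 2 and 3. Differently numbered libraries correlated at -0.29 to 0.15. For replicates 1 and 2 the same-numbered library was the best correlated of the other group, and for replicate 3 it was not. No label says that the numbers pair the libraries, and whether same-numbered libraries share a batch was not tested. Voom called 84 and 661. Under 20 fragments in some ShSDH1 library limit the precision of 22 genes.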

Other observations

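Of the genes left out by their identifier numbers, 4 met the rest of the rule, 2 each in the number series 9 and 2. No gene (0) at 300 FPKM or more in Control met it.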
